A study of Mus musculus with 4 samples.

Results

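The genes described here are 10 sensors, factors and effectors of endoplasmic reticulum (ER) stress and nutrient stress, taken by symbol from the 32285 gene symbols of the deposited matrices. All 10 were present, and all 10 passed the low-count filter in hepatocytes. Single-nucleus RNA sequencing of mouse liver had been run on 4 libraries. The 2 fasted libraries, fasted 1 and fasted 2, came from mice without food for 16 to 24 h, and the 2 fed libraries, fed 1 and fed 2, from fed mice. Per the labels' protocols, 50 mg of frozen liver pooled from 8 mice went into a preparation, and the nuclei were loaded with 10x chemistry 3.1. Strain, sex, age and hour of collection are not given in the sources used here, and no agent or allele is named. Whether the mice pooled for replicate 1 and replicate 2 of a group were different animals is also not stated, so p-values measure the spread between preparations, which may be technical.

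When unfolded proteins build up in the ER, the membrane sensors IRE1 (gene Ern1), PERK (Eif2ak3) and ATF6 raise chaperone production and slow translation. IRE1 splices the Xbp1 RNA so that it encodes an active factor, and PERK, like the amino acid sensor GCN2, phosphorylates eIF2 so that Atf4 RNA is translated better. Much of this signalling acts on splicing, translation or cleavage, and the counts used here measure RNA per gene in nuclei only. In the liver, insulin and feeding place a secretory and anabolic load on the ER, whereas fasting lowers insulin and raises glucocorticoids and glucagon.

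The promoters of the chaperone genes Hspa5 and Pdia4 are shown because both genes went the same way between the portal and the central end of the lobule in each library. Both sequences are the 250 bases before the RefSeq start of the gene (GRCm38.p6), written 5′ to 3′ on the gene's strand. The ER stress response element, which ATF6 binds with the factor NF-Y, consists of the box CCAAT and a second box whose letters are CCACG. Capitals mark both boxes on either strand. Hspa5 lies at chr2:34771840-34772089 on the plus strand and Pdia4 at chr6:47813513-47813762 on the minus strand.
Hspa5: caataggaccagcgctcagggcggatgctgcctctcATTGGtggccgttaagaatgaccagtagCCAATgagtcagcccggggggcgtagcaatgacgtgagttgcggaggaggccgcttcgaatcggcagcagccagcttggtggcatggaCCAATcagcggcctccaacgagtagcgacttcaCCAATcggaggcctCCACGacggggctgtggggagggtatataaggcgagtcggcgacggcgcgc
Pdia4: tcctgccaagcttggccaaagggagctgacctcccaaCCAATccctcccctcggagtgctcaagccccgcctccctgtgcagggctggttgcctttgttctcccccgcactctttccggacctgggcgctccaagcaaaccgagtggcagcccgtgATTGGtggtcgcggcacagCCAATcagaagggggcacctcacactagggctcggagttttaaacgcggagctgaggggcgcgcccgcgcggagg

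The full element, with 9 bases between its boxes, was searched on both strands in windows from 250 bases before to 50 bases after each RefSeq start. It occurred in 1 of the 11 member windows, that of Hspa5, and in 0.119% of all 32851 windows. In Hspa5 its first letter stood 65 bases before the start. The Hspa5 stretch held 4 copies of the first box and 1 of the second, and the Pdia4 stretch held 3 copies of the first and 0 of the second. Alone, the first box was in 37.4% of all windows and the second in 32.8%. The letters TGATGNAA, one form of the element that ATF4 binds with C/EBP partners, were in the window of Trib3 (within the 50 bases after the start, on the opposite strand) and in 3.97% of all windows. TGACGTGG, a binding form of XBP1 and ATF6, was in 0.676% of all windows and TGACGTCA, the cAMP response element, in 1.79%, and neither was in a member window. A missing match says only that these exact letters were not in that window.

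After filtering, 29855 nuclei were used. They included 18823 hepatocyte-like nuclei, 5423 endothelial-like, 1977 Kupffer cell- or macrophage-like, 1774 stellate-like, 522 cholangiocyte-like and 430 B or plasma cell-like nuclei, named without the suffix from here on. Hepatocyte sums held 21002732 and 19302226 unique molecular identifiers (UMIs, 1 per captured transcript) in fasted 1 and fasted 2, against 16828370 and 6722305 in fed 1 and fed 2. Levels are given as CPM, the counts of a gene per 1000000 summed UMIs of a cell type in a library. All 8 hepatocyte markers were detected in the hepatocyte sums, at 20739 and 15379 CPM together in the fasted libraries and 17195 and 10477 CPM in the fed ones. The 9 stellate markers were at 21.9 and 12.0 CPM together in fasted hepatocytes and 49.5 and 63.7 CPM in fed ones, with none at 0. The 9 T or NK cell markers were at 23.5 and 12.4 CPM together in fasted hepatocytes and 6.54 and 9.07 CPM in fed ones, and the part of either list in the results was not tested. Each pair of libraries shared between 11 and 38 cell barcodes.

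Library fed 1 stood apart. The acute phase genes Saa1 and Saa2 were at 390.0 and 347 CPM in its hepatocytes, against at most 12.1 and 3.05 CPM in the other libraries. Fed 2 was the shallowest, where hepatocytes had a median of 1282 UMIs, against 2548 to 3240 elsewhere. The gene Gm42418 made up 4.61% of all UMIs of fed 2, against 0.204% to 1.01% elsewhere, and its part was not tested. The main hepatocyte values below are therefore also given without fed 1 or fed 2 where that moves them most.

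In hepatocytes, the mTOR brakes Ddit4 and Sesn2 and the ER-bound factor Creb3l3 had higher levels in each fasted library than in either fed one, and the sensor Ern1 had lower levels. The chaperone genes Hspa5 and Pdia4, with Xbp1, Atf4 and Ddit3, were highest in fed 1, while fed 2 lay between the fasted libraries. None of the 10 genes passed the test over all genes (edgeR quasi-likelihood test, Benjamini-Hochberg threshold 0.05). At an unadjusted p under 0.05 there was 1, Ddit4, and DESeq2 called the same gene. Across all 13998 genes tested, edgeR called 1 gene or 0.00714%, with 958 at an unadjusted p under 0.05. DESeq2, run without the low-count filter, called 166 of 24867 genes. Both fasted libraries lay above both fed ones for 3 of the 10 genes, against 20.6% of all genes tested. They lay below for 1 of the 10, against 15.7% of all genes tested. The shares of non-overlapping members were thus near those of all genes. Their log2 fold changes were above 0 for 3 and below 0 for 7, with a median of -0.62, and without fed 1 they were above 0 for 5 and below 0 for 5, with a median of 0.01. The plot of hepatocyte levels shows the 4 libraries for each gene.

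**Figure D1:**
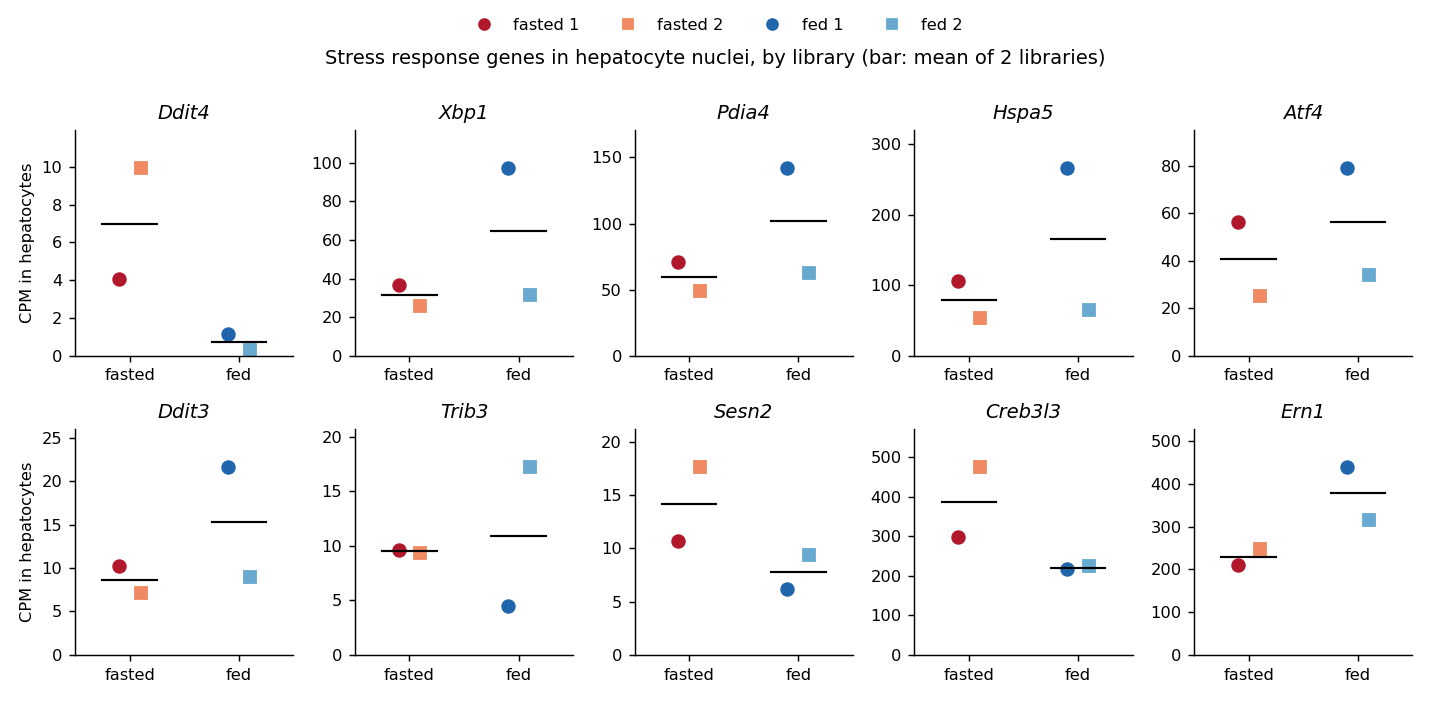
Levels of the 10 genes in hepatocyte nuclei (CPM of summed counts, vertical axes from 0), with fasted libraries in red shades on the left, fed libraries in blue shades on the right, and black bars for the mean of 2 libraries. Ddit4, Sesn2 and Creb3l3 are higher in both fasted libraries and Ern1 is lower in both, while for Xbp1, Pdia4, Hspa5, Atf4 and Ddit3 fed 1 is the highest point and fed 2 lies among the fasted libraries.

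Ddit4 (chromosome 10, 59949669 to 59951834, minus strand; all gene coordinates are those of GENCODE release M21 on GRCm38, the assembly of mm10) encodes REDD1, an inhibitor of mTORC1 that is induced by glucocorticoids, low oxygen and ATF4. It was at 4.05 and 9.95 CPM in fasted 1 and fasted 2, against 1.13 and 0.298 CPM in fed 1 and fed 2. These values rest on 85 and 192 UMIs in the fasted libraries and on 19 and 2 in the fed ones. The exact 95% Poisson intervals were 3.23 to 5.00 and 8.59 to 11.5 CPM in the fasted libraries, and 0.680 to 1.76 and 0.0360 to 1.07 CPM in the fed ones, and they cover counting error only. The groups did not overlap, and the fasted libraries also differed from each other by more than counting error. The log2 fold change, fasted minus fed, was 3.17 (SE 0.82, n = 2 and 2; edgeR adjusted p = 0.557, unadjusted p = 0.00818). Among fits that kept every library, Ddit4 was called with DESeq2 (3.19, adjusted p = 0.0127). The other such call came without the low-count filter (3.21, edgeR adjusted p = 0.00543). Ddit4 was at 4.43 without fed 1. Over its 12 alternatives the log2 fold change ran between 2.35 and 4.43 and the adjusted p from 0.00543 to 1.

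Sesn2 (chromosome 4, 132492032 to 132510501, minus strand) encodes sestrin 2, which binds leucine and holds back mTORC1 through GATOR2. It was at 10.7 and 17.7 CPM in fasted libraries and 6.24 and 9.37 CPM in fed ones. The groups did not overlap, but fasted 1 and fed 2 lay close together. Fasted minus fed, the log2 fold change was 0.83 (SE 0.50; edgeR adjusted p = 0.833). It was 0.38 without fasted 2, 0.50 without fed 1 and 1.22 without fed 2. The annotation holds another gene, Gm12981, on the same strand over 6089 bases of Sesn2, so the counts of Sesn2 may be incomplete.

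Creb3l3 (chromosome 10, 81084324 to 81098874, minus strand) encodes CREBH, a liver and gut transcription factor of the ER membrane that is released by cleavage and drives genes of triglyceride metabolism, Fgf21 among them. Its level was 298 and 475 CPM in fasted libraries, against 217 and 224 CPM in fed ones. Both fed libraries were nearly equal, and both fasted ones lay above them. Its log2 fold change was 0.78 (SE 0.36; edgeR adjusted p = 0.754), and 0.36 without fasted 2.

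Ern1 (chromosome 11, 106394650 to 106487852, minus strand) encodes IRE1 alpha, the kinase and RNase that splices Xbp1. It was at 211 and 247 CPM in fasted libraries and 439.9 and 316 CPM in fed ones. The groups did not overlap. A log2 fold change of -0.75 was fitted (SE 0.31; edgeR adjusted p = 0.739). Over its 12 alternatives it ran between -0.91 and -0.56, and the edgeR or DESeq2 adjusted p from 0.238 to 1. Xbp1 (chromosome 11, 5520659 to 5525893, plus strand), the substrate of IRE1, was at 36.7 and 25.9 CPM in fasted libraries and 97.5 and 31.7 CPM in fed ones. Fed 1 stood far above the other 3 libraries, and fed 2 lay between the fasted ones. The log2 fold change was -1.06 (SE 0.53; edgeR adjusted p = 0.778). Xbp1 was at -1.61 without fed 2 and at -0.13 without fed 1.

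Hspa5 (chromosome 2, 34771970 to 34777547, plus strand) encodes BiP, the main ER chaperone, which also holds the stress sensors inactive. It was at 106 and 53.1 CPM in fasted libraries and 267 and 64.9 CPM in fed ones. Fed 1 was the highest library, and fed 2 lay between fasted 1 and fasted 2. The log2 fold change was -1.07 (SE 0.66; edgeR adjusted p = 0.844). Without fed 2 it was -1.72, and without fed 1 it was 0.18, on the other side of 0. Pdia4 (chromosome 6, 47796141 to 47813430, minus strand), which encodes the disulfide isomerase ERp72, was at 70.7 and 49.2 CPM in fasted libraries and 142 and 62.3 CPM in fed ones. Its libraries had the same order as those of Hspa5, with a log2 fold change of -0.79 (SE 0.43; edgeR adjusted p = 0.807) that was -0.17 without fed 1 and -1.22 without fed 2.

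Atf4 (chromosome 15, 80255184 to 80257541, plus strand) encodes the factor whose translation rises when eIF2 is phosphorylated. It was at 56.5 and 25.2 CPM in fasted libraries and 79.3 and 33.9 CPM in fed ones, and the groups overlapped. With the zeros stored in the matrices counted as 1, a reading added after seeing the data, Atf4 was at 73.9 and 48.9 CPM in fasted libraries and 115 and 78.0 CPM in fed ones, and the groups did not overlap. It was the only one of the 10 genes whose overlap changed under that reading. Replicate 1 was above replicate 2 in both groups. Ddit3 (chromosome 10, 127290774 to 127296288, plus strand), which encodes CHOP, a target of ATF4, was at 10.2 and 7.15 CPM in fasted libraries and 21.6 and 8.93 CPM in fed ones. Fed 1 was again the highest. The annotation holds a second gene of the same symbol over 2925 bases of Ddit3, so its counts may be incomplete. Trib3 (chromosome 2, 152337422 to 152344032, minus strand), which encodes a pseudokinase that is induced by ATF4 and CHOP and binds AKT, was at 9.62 and 9.38 CPM in fasted libraries and 4.52 and 17.3 CPM in fed ones. Here fed 1 was the lowest library and fed 2 the highest. The log2 fold changes of Atf4, Ddit3 and Trib3 were -0.50 (SE 0.53), -0.84 (SE 0.51) and -0.25 (SE 0.69), with edgeR adjusted p of 0.959, 0.841 and 0.997. Without fed 1 they were 0.15, -0.15 and -0.96, and without fed 2 they were -0.94, -1.29 and 1.104.

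**Figure D2:**
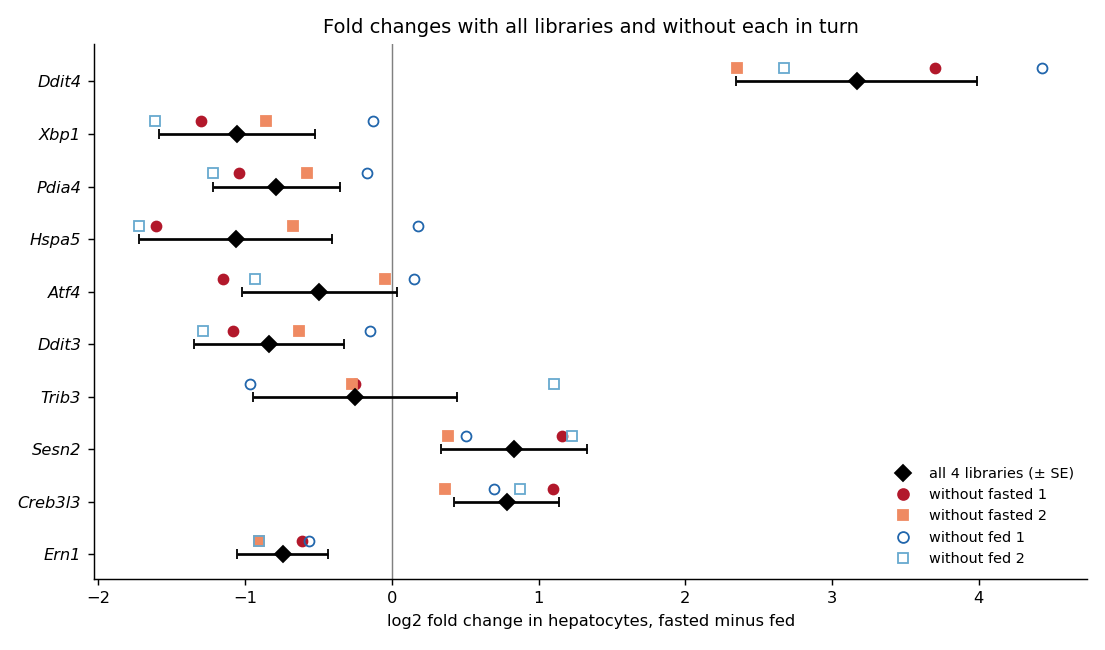
Log2 fold changes of the 10 genes in hepatocytes, fasted minus fed (horizontal axis), with all 4 libraries (black diamonds, bars ± SE) and without each library in turn (coloured marks). Without fed 1 the values of Xbp1, Pdia4, Hspa5, Atf4 and Ddit3 move to between -0.17 and 0.18, while those of Ddit4, Sesn2 and Creb3l3 stay above 0 and that of Ern1 stays below 0 in all 5 fits.

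The high values of Hspa5 and Pdia4 in fed 1 were found in hepatocyte clusters with much and with little Saa1. In fed 1, cluster c8, led by Saa2 and Saa1, held 1747 hepatocytes and cluster c2, led by Cyp2c70, held 2744. Hspa5 was at 241 CPM in c8 and 296 CPM in c2, and Pdia4 at 118 CPM in c8 and 164 CPM in c2, all above the fasted and fed 2 levels. Xbp1 was at 139 CPM in c8 and 73.3 CPM in c2, and Ddit3 at 27.4 CPM in c8 and 18.9 CPM in c2. Ern1 was at 402 CPM in c8 and 469 CPM in c2. Saa1 itself was at 1061 CPM in c8 and 13.4 CPM in c2. Cluster c13, led by Tbx3os1, held 514 hepatocytes of fed 1, with Saa1 at 228 CPM. Hspa5 was at 205 CPM in c13, Pdia4 at 106, Xbp1 at 91.3, Ddit3 at 16.6 and Ern1 at 417 CPM. The part of the acute phase in these values was not tested. No test was made between clusters, since these same counts formed them.

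The genes around the 10 were read in 10 lists, whose members and order were set with earlier results of these data known. No gene of any list passed edgeR over all genes in hepatocytes, where the median log2 fold change of all genes was -0.01. Genes at an unadjusted p under 0.05 and genes called by DESeq2 are counted with each list, and those named for a DESeq2 call alone were chosen after their values were seen. A list's counts and median only describe it, and no list was tested as a set.

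Genes of ER folding had mostly negative log2 fold changes. Of 22 ER chaperones, folding enzymes and cofactors that were fitted (of 23 listed), 21 had a negative log2 fold change, with a median of -0.68, and both fasted libraries were below both fed ones for 13, against 15.7% of all genes. At an unadjusted p under 0.05 there were 6, and DESeq2 called 1 lower. That gene, Ero1lb, which reoxidises the disulfide isomerases, was at 56.3 and 55.2 CPM in fasted libraries and 201 and 131 CPM in fed ones (log2 fold change -1.60, SE 0.32; edgeR adjusted p = 0.474, DESeq2 adjusted p = 0.0315). Hsp90b1, the ER form of HSP90, was at 339 and 183 CPM in fasted libraries and 829 and 191 CPM in fed ones. Calr, a calcium-binding chaperone of glycoproteins, was at 45.4 and 23.7 CPM in fasted libraries and 74.9 and 21.1 CPM in fed ones. Without fed 1 the median of the list was -0.28, with 13 of 22 negative.

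Of 19 genes of ER entry and export fitted (of 20), 13 had a negative log2 fold change, and the median was -0.43 (-0.26 without fed 1, with 7 of 19 positive). Both fasted libraries were below both fed ones for 9, against 15.7% of all genes, and above them for 3, against 20.6%. At an unadjusted p under 0.05 there were 5, and DESeq2 called 1 lower. Sec61b, a subunit of the channel through which proteins enter the ER, was at 9.47 and 5.03 CPM in fasted libraries and 32.6 and 19.2 CPM in fed ones. On the log2 scale the difference, fasted minus fed, was -1.87 (SE 0.47; edgeR adjusted p = 0.557, DESeq2 adjusted p = 0.0444). Sec61a1, its pore subunit, was at 41.8 and 39.7 CPM in fasted libraries and 96.6 and 54.4 CPM in fed ones. Both subunits were lower in each fasted library than in either fed one. All 18 genes of ER-associated degradation were fitted, and 15 had a negative log2 fold change (median -0.38, and -0.11 without fed 1; 1 at an unadjusted p under 0.05, 0 by DESeq2). Edem1, which hands misfolded glycoproteins over for degradation, was at 80.2 and 81.3 CPM in fasted libraries and 172.5 and 91.9 CPM in fed ones. Herpud1, a part of the retrotranslocation complex, was at 740.5 and 288 CPM in fasted libraries and 573 and 147 CPM in fed ones, so the groups overlapped.

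Among 15 other sensors, proteases and eIF2 kinases or phosphatase subunits, 12 had a negative log2 fold change (median -0.18, and -0.10 without fed 1; 2 at an unadjusted p under 0.05, 0 by DESeq2). Eif2ak3, which encodes PERK, was at 41.2 and 40.9 CPM in fasted libraries, against 122.5 and 99.7 CPM in fed ones. Its replicates lay close together and the groups far apart, with a log2 fold change of -1.47 (SE 0.30; edgeR adjusted p = 0.474, unadjusted p = 0.00241, DESeq2 adjusted p = 0.0519). Atf6 was at 275 and 262 CPM in fasted libraries and 324 and 344 CPM in fed ones.

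Targets of ATF4 and CHOP had no common direction. Of 21 fitted (of 29 present), 10 had a positive and 11 a negative log2 fold change (median -0.17, and -0.05 without fed 1; 3 at an unadjusted p under 0.05, and 1 called higher by DESeq2). That gene, Cth, which makes cysteine from cystathionine, was at 656 and 570.5 CPM in fasted libraries and 187 and 233 CPM in fed ones (log2 fold change 1.499, SE 0.32; edgeR adjusted p = 0.493, DESeq2 adjusted p = 0.0368). Asns, the asparagine synthetase, was at 0.905 and 1.97 CPM in fasted libraries and 1.13 and 1.34 CPM in fed ones. Chac1, which degrades glutathione, was listed at 0.143 and 0.0518 CPM in fasted libraries and 0.119 and 0 CPM in fed ones and did not pass the filter. Genes linked to CREBH had a positive log2 fold change in 7 of 9 fitted (median 0.43, and 0.69 without fed 1; 3 at an unadjusted p under 0.05, 2 called higher by DESeq2). Fgf21, a fasting hormone of the liver, was at 1.19 and 0 CPM in fasted libraries and 0.238 and 0.298 CPM in fed ones and did not pass the filter. Apoa4, an apolipoprotein, was at 7.62 and 5.54 CPM in fasted libraries and 0.119 and 0.446 CPM in fed ones, the fed values being at or below what 3 UMIs give, and DESeq2 called it (adjusted p = 1.51e-04). Cidec, a protein of lipid droplets, was called by DESeq2 too (adjusted p = 0.0230), at 41.9 and 70.7 CPM in fasted libraries and 18.2 and 3.42 CPM in fed ones.

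Genes of the mTOR complexes and of the amino acid and energy sensing around them had 11 positive and 17 negative log2 fold changes among 28 fitted, a median of -0.07 (-0.17 without fed 1), with 0 at an unadjusted p under 0.05 and 0 by DESeq2. Mtor, the kinase itself, was at 68.5 and 107 CPM in fasted libraries and 78.4 and 113 CPM in fed ones, and Rptor, the mTORC1 scaffold, at 229 and 362 CPM in fasted libraries and 213 and 352 CPM in fed ones. For both genes the libraries followed the replicate number and not feeding. Of 14 genes known to respond to glucocorticoids, 10 had a positive log2 fold change (median 0.69, and 1.70 without fed 1; 2 at an unadjusted p under 0.05, 0 by DESeq2), and both fasted libraries were above both fed ones for 8, against 20.6% of all genes. Tsc22d3, which encodes GILZ, was at 555 and 443 CPM in fasted libraries and 488 and 153 CPM in fed ones. Per1, a clock gene that glucocorticoids induce, was at 59.6 and 65.3 CPM in fasted libraries and 48.7 and 28.3 CPM in fed ones.

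Of 19 acute phase genes fitted (of 20), 18 had a negative log2 fold change (median -1.58; 5 at an unadjusted p under 0.05, 1 of them, Steap4, called lower by DESeq2), and without fed 1 the median was 0.44, on the other side of 0. DESeq2, run without the low-count filter, also called Orm2 lower, which was at 0.476 and 0.0518 CPM in fasted libraries and 10.3 and 0.149 CPM in fed ones. Of 12 immediate early genes fitted (of 14), 11 had a negative one (median -1.37, and -1.89 without fed 1; 4 at an unadjusted p under 0.05, 0 by DESeq2). Fos, an early marker of stimulated transcription, was at 0.857 and 0.104 CPM in fasted libraries and 2.44 and 2.23 CPM in fed ones, and Fosb at 0 and 0.104 CPM in fasted libraries and 0 and 0.298 CPM in fed ones. Leaving out fed 2 moved the lists too. All 23 folding genes then fitted had a negative log2 fold change (median -1.005), and the acute phase median was -2.11. The medians of ER-associated degradation and of ER entry and export were then -0.60 and -0.68. That of the CREBH list was 0.79, that of the glucocorticoid list 0.46 and that of the immediate early list -0.82. Genes called in the fits without fed 1 or fed 2 are not counted by list, since each such fit leaves 1 fed library.

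Both fasted libraries were below both fed ones for 7 of 18 degradation genes, 5 of 15 sensors and 5 of 21 ATF4 targets. They were so for 1 of 9 CREBH-linked, 5 of 28 mTOR, 2 of 19 acute phase and 7 of 12 immediate early genes. They were above for 0, 1, 5, 5, 3, 0 and 0 genes of these lists in that order. These counts stand beside 15.7% below and 20.6% above among all genes. The acute phase and immediate early lists move with feeding or with fed 1 beside the chaperone genes, and their part in the results was not tested.

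**Figure D3:**
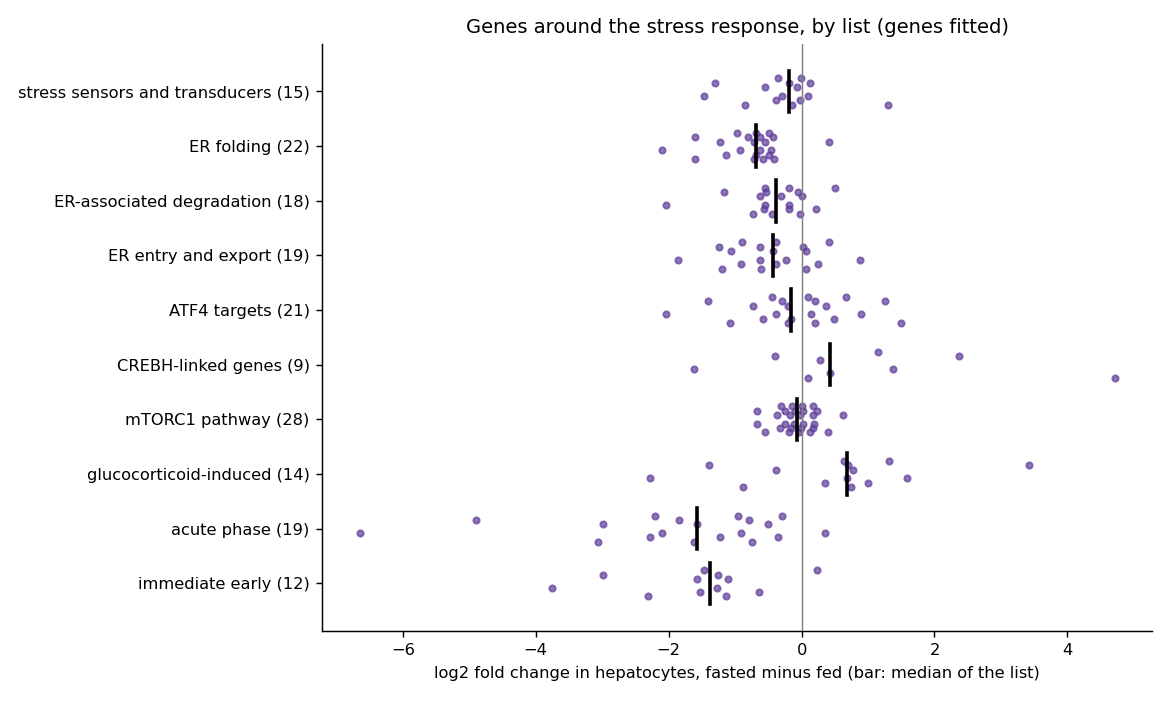
Log2 fold changes in hepatocytes, fasted minus fed (horizontal axis), of each fitted gene in the 10 lists around the stress response (purple points, number fitted in brackets), with the list's median as a black bar. ER folding genes lie below 0 for 21 of 22, the mTORC1 list is centred near 0 with a median of -0.07, and acute phase and immediate early genes spread widest on the negative side.

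Hepatocytes were next ordered by position between the portal and the central vein, on counts thinned to 1500 UMIs per nucleus. They were split within each library into 3 bins of equal size by a score of landmark genes, none of which was among the 10 genes. Only hepatocytes with at least 1500 UMIs were scored. In fasted 1 and fasted 2 they were 4813 of 5409 and 4235 of 4572. In fed 1 and fed 2 they were 4344 of 5065 and 1557 of 3777, so the fed 2 bins leave out most of its hepatocytes. Scores from alternate landmarks correlated at 0.60 and 0.62 in fasted 1 and fasted 2, and at 0.54 and 0.50 in fed 1 and fed 2. Creb3l3 fell from the periportal to the pericentral bin in all 4 libraries, and Ddit4 was called lower in the pericentral bin on small counts. Of the 10 genes, 2 were called lower and 0 higher, against 15.4% of 10616 genes called (810 higher and 827 lower). The gradient of Pdia4 differed between fasted and fed livers by a test of that difference, and that of Hspa5 did not pass it.

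Creb3l3 was at 254 and 419.6 CPM in the pericentral bin of fasted 1 and fasted 2 and at 347 and 548 CPM in their periportal bin. In fed 1 and fed 2 it was at 215 and 207 CPM in the pericentral bin and 241 and 271 CPM in the periportal bin. The pericentral minus periportal log2 fold change was -0.36 (SE 0.07, 4 libraries as blocks; edgeR adjusted p = 2.15e-04), lower in 4 of 4 libraries. It stayed called under all 8 alternatives, with values between -0.43 and -0.26. The gradient did not pass a test of a difference between fasted and fed livers (-0.19, SE 0.13; edgeR adjusted p = 0.872).

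Ddit4 had 8, 11, 1 and 0 UMIs in the pericentral bin of fasted 1, fasted 2, fed 1 and fed 2, and 13, 29, 6 and 0 in the periportal bin. In fed 2 both bins were at 0, so the direction rests on 3 libraries, all lower in the pericentral bin. The log2 fold change was -1.26 (SE 0.43; edgeR adjusted p = 0.0417), and it lost the call in 4 alternatives, with an adjusted p from 0.0332 to 0.129 over 7 alternatives that gave one. Ern1 was at 192 and 229 CPM in the pericentral bin of fasted 1 and fasted 2, against 228 and 276 CPM in their periportal bin, and at 425 and 288 CPM in the pericentral bin of fed 1 and fed 2, against 423 and 346 CPM in their periportal bin. Its log2 fold change was -0.19 (SE 0.07; edgeR adjusted p = 0.0725). Without fed 1, where no gradient was seen, it was -0.28 and was called (edgeR adjusted p = 0.0118, range over 8 alternatives 0.0118 to 0.344). Trib3 was higher in the pericentral bin in 3 of 4 libraries and equal in fed 1 (log2 fold change 0.52, SE 0.24; edgeR adjusted p = 0.151).

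Pdia4 was at 84.8 and 58.6 CPM in the pericentral bin of fasted 1 and fasted 2, and at 61.1 and 40.1 CPM in their periportal bin. In fed 1 and fed 2 it was at 115 and 43.7 CPM in the pericentral bin and at 147 and 66.8 CPM in the periportal bin. It was thus higher toward the central vein in both fasted libraries (log2 ratios, on CPM plus 1, of 0.47 and 0.53) and lower there in both fed ones (-0.36 and -0.60). The difference of the 2 gradients was 0.89 on the log2 scale (SE 0.19; edgeR adjusted p = 0.0180), 1 of 25 genes called, or 0.235% of the 10616 tested. At an unadjusted p under 0.05 there were 2 members, Pdia4 and Hspa5, beside 764 of all 10616 genes. No member other than Pdia4 was called. The call was lost without fasted 1, fasted 2 or fed 1 and with the score split at its middle in place of the outer bins, where the adjusted p was up to 0.531, and the value stayed between 0.54 and 1.11 over its 8 alternatives. Without fed 2 the adjusted p was 0.00399.

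Hspa5 went the same way as Pdia4 between the periportal and the pericentral bin of each library. The place of its middle bin differed from that of Pdia4 in fasted 2 and fed 2, and its difference of gradients did not pass. Its level was 114 and 57.2 CPM in the pericentral bin of fasted 1 and fasted 2, against 94.3 and 43.9 CPM in their periportal bin, and at 227 and 48.8 CPM in the pericentral bin of fed 1 and fed 2, against 289 and 77.1 CPM in their periportal bin. The log2 ratios were 0.27 and 0.37 in the fasted libraries and -0.35 and -0.65 in the fed ones. The difference of the gradients was 0.68 (SE 0.17; edgeR adjusted p = 0.0621), called with RLE scaling (adjusted p = 0.0421), without the low-count filter (0.0278) and without fed 2 (0.0112), with a range of 0.0112 to 0.717 over 8 alternatives. The fed 2 bins held only 34 and 52 UMIs of Pdia4, and 38 and 60 of Hspa5, in the pericentral and periportal bin. Among the 22 folding genes fitted by bin, 2 more had a called difference of gradients, Hsp90b1 with 0.56 (SE 0.13; edgeR adjusted p = 0.0464) and Hyou1, a large chaperone of the ER, with 0.97 (SE 0.22; adjusted p = 0.0315). Hyou1 is named for having passed, after its values were seen. For Hsp90b1 and Hyou1 no values under the alternatives are given here. Among all genes 25 were called, and 15 with the score split at its middle. The median difference of gradients in the folding list was 0.38, against -0.01 for all genes.

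Xbp1 (0.23, SE 0.23), Atf4 (0.15, SE 0.22), Ddit3 (0.54, SE 0.47), Trib3 (0.55, SE 0.50), Ern1 (-0.19, SE 0.13), Sesn2 (-1.01, SE 0.53) and Ddit4 (1.22, SE 1.43) had a difference of gradients that did not pass, with edgeR adjusted p from 0.736 to 0.959. Sesn2 had 27 and 46 UMIs in the pericentral bin of the fasted libraries and 37 and 38 in the periportal bin, against 23 and 8 and against 11 and 5 in the fed ones. Averaged over libraries, Xbp1, Pdia4, Hspa5 and Atf4 had pericentral minus periportal log2 fold changes between -0.10 and 0.05, with adjusted p from 0.685 to 0.924.

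By position alone, 6 of the 22 folding genes were called lower in the pericentral bin and 0 higher, with a median log2 fold change of -0.14 against -0.01 for all genes. Of 17 genes of ER-associated degradation, 2 were called lower and 0 higher, among them Herpud1 with -0.53 (SE 0.07; edgeR adjusted p = 3.51e-07). Of 19 genes of ER entry and export, 4 were called lower and 2 higher. Called lower were also 9 of 19 acute phase, 3 of 8 immediate early and 4 of 12 glucocorticoid genes, with 1, 0 and 1 higher. Of 14 sensors and 17 ATF4 targets, 0 and 1 were called lower and 0 and 2 higher. Of 8 CREBH-linked and 26 mTOR genes, 2 and 2 were called lower and 1 and 1 higher. These shares stand beside the 15.4% called among all genes, 827 lower and 810 higher of 10616.

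**Figure D4:**
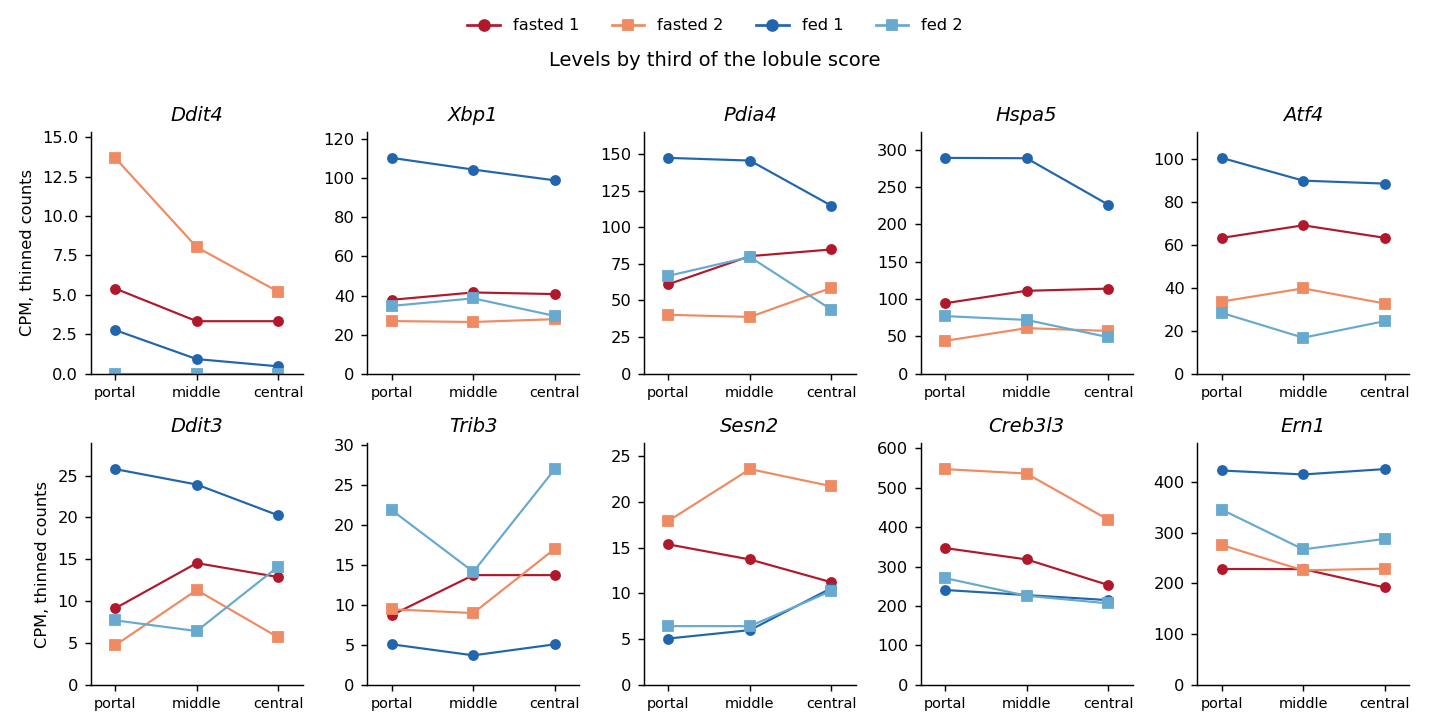
Levels of the 10 genes (CPM of counts thinned to 1500 UMIs per nucleus, vertical axes from 0) in the periportal, middle and pericentral bins of the lobule score, with 1 line per library. Creb3l3 declines toward the central vein in all 4 libraries, while Pdia4 and Hspa5 are higher in the pericentral than in the periportal bin of both fasted libraries and lower there in both fed ones.

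Outside hepatocytes, the sums were far smaller, and no member was called between fasted and fed livers in any of the 5 other cell types tested. Of the members fitted, 3 of 8 in endothelial nuclei, 1 of 8 in Kupffer cells or macrophages, and 0 of 6 in stellate, 0 of 3 in cholangiocyte and 0 of 5 in B or plasma cell nuclei were at an unadjusted p under 0.05 in edgeR, and DESeq2 called 0 in each type. The endothelial genes were Ddit4, Creb3l3 and Ern1, and the Kupffer cell or macrophage gene was Ddit4. Over all genes, 349 of 9979 in endothelial nuclei and 250 of 8250 in Kupffer cells or macrophages were at such a p. Over all genes edgeR called 0.0501% in endothelial, 0% in Kupffer or macrophage, 0.014% in stellate, 0.126% in cholangiocyte and 0% in B or plasma cell nuclei. For the types at 0%, DESeq2 called 11 of 18069 genes in Kupffer cells or macrophages and 3 of 14269 in B or plasma cells. In B or plasma cells 123 of 3670 genes were at an unadjusted p under 0.05 in edgeR.

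Ddit4 had higher levels in both fasted libraries than in fed 1 in endothelial nuclei and in Kupffer cells or macrophages. In endothelial nuclei it was at 10.4 and 18.8 CPM (23 and 20 UMIs) in fasted libraries and 2.75 and 0 CPM (5 and 0 UMIs) in fed ones. In Kupffer cells or macrophages it was at 15.9 and 25.1 CPM (15 and 18 UMIs) in fasted libraries and 1.53 and 0 CPM (1 and 0 UMIs) in fed ones. The 0 of fed 2 allows up to 19.0 CPM in endothelial nuclei and 26.9 CPM in Kupffer cells or macrophages (3 UMIs of the sum), which is above the fasted values, so the contrast rests on fed 1. The fitted log2 fold changes, which depend on the prior count, were 2.51 (SE 0.91) and 3.84 (SE 1.13), with an edgeR adjusted p of 1.00 in both. The change did not pass a test of a difference from that in hepatocytes, at -0.08 (SE 0.93) for endothelial nuclei and 1.31 (SE 1.70) for Kupffer cells or macrophages (edgeR adjusted p = 1).

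Ern1 was lower in both fasted libraries in endothelial nuclei, at 155 and 148 CPM against 283 and 259.6 CPM in fed ones (log2 fold change -0.89, SE 0.35; edgeR adjusted p = 1.00). In Kupffer cells or macrophages it was at 177 and 230.1 CPM in fasted libraries and 338 and 251 CPM in fed ones, and in stellate nuclei at 178 and 179.9 CPM in fasted libraries and 236 and 224 CPM in fed ones. The groups did not overlap in these 3 types, and the share of all genes without overlap was not computed outside hepatocytes. Hepatocyte RNA was present in these sums, and its part in the values was not tested. Ern1 ran from 53.7% (stellate nuclei, fed 1) to 93.2% (Kupffer cells or macrophages, fasted 2) of its hepatocyte level in these 3 types. In cholangiocytes it was at 192 and 170.4 CPM in fasted libraries and 190.3 and 46.5 CPM in fed ones, where the groups overlapped and fed 2 held 1 UMI. In B or plasma cells it was at 167 and 235 CPM in fasted libraries and 318 and 165 CPM in fed ones, which overlapped, with fed 2 the lowest.

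Hspa5 and Atf4 followed the replicate number more than feeding in endothelial nuclei. Hspa5 was at 71.6 and 18.8 CPM there in fasted libraries and 72.1 and 19.0 CPM in fed ones, and Atf4 at 54.4 and 12.2 CPM in fasted libraries and 66.1 and 19.0 CPM in fed ones. In Kupffer cells or macrophages both genes were lower in each fasted library than in either fed one. Hspa5 was at 94.1 and 27.9 CPM fasted, against 168 and 98.7 CPM fed. Atf4 was at 66.6 and 27.9 CPM fasted, against 74.9 and 80.8 CPM fed. In stellate, cholangiocyte and B or plasma cell nuclei their groups overlapped. Pdia4 was lower in both fasted libraries in all these types but stellate nuclei, on few UMIs in fed 2. These were 6 in endothelial nuclei, 8 in Kupffer cells or macrophages, 2 in cholangiocytes and 3 in B or plasma cells. The share of all genes without overlap was not computed in these types, so the orders of Hspa5, Atf4 and Pdia4 have no background beside them. The change of Hspa5 in endothelial nuclei differed from that in hepatocytes by 0.99 (SE 0.34; edgeR adjusted p = 0.440). No member passed the test of such a difference in any type. At an unadjusted p under 0.05 there were 2 for cholangiocytes (Xbp1 and Hspa5) and 1 for endothelial nuclei (Hspa5). There were 0 for Kupffer cells or macrophages, stellate and B or plasma cell nuclei. Among all genes, 473 of 12715 for cholangiocytes and 678 of 13261 for endothelial nuclei were at such a p. So were 607 of 13176 for Kupffer cells or macrophages, 471 of 13455 for stellate and 319 of 12341 for B or plasma cell nuclei. Over all genes the same test called 0.354% for endothelial nuclei, 0.296% for Kupffer cells or macrophages, 0.186% for stellate, 0.00786% for cholangiocyte and 0.0243% for B or plasma cell nuclei.

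Creb3l3, a hepatocyte gene, was found in every type. By mean over the 4 libraries it was at 303 ± 120 CPM in hepatocytes (SD), 217 ± 113 CPM in B or plasma cells, 177 ± 92.7 CPM in Kupffer cells or macrophages, 118 ± 46.1 CPM in cholangiocytes, 104 ± 31.0 CPM in stellate nuclei and 97.0 ± 48.8 CPM in endothelial nuclei. The ranges of neighbours in this order overlapped. In endothelial nuclei Creb3l3 stood at 30.7% and 35.2% of its hepatocyte level in the fasted libraries and 27.4% and 31.1% in the fed ones. The median of the 8 hepatocyte markers was at 53.0% and 55.5% of its hepatocyte level there in the fasted libraries and at 36.7% and 74.2% in the fed ones. Over the 5 types and 4 libraries, Creb3l3 ran from 23.4% to 118% and the marker median from 36.7% to 95.3%. Hepatocyte RNA was thus present in the sums of the other types, and its part in the levels and fold changes there was not tested. In endothelial nuclei the log2 fold change of Creb3l3 was 1.00 (SE 0.46) and in Kupffer cells or macrophages 1.18 (SE 0.53), with edgeR adjusted p of 1.00.

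Among the 6 types tested, the mean level of the other members was highest in hepatocytes for Xbp1 (47.9 ± 33.3 CPM), Pdia4 (81.1 ± 41.7), Hspa5 (123 ± 98.6) and Ern1 (303 ± 101). It was highest in Kupffer cells or macrophages for Ddit4 (10.6 ± 12.0 CPM), Atf4 (62.5 ± 23.8) and Trib3 (11.7 ± 16.6), in cholangiocytes for Ddit3 (21.5 ± 16.7) and in stellate nuclei for Sesn2 (14.8 ± 7.74), as SD over 4 libraries. The places of Trib3, Ddit3 and Atf4 rested on fed 2, where Trib3 had 4 UMIs in Kupffer cells or macrophages and Ddit3 had 1 UMI in cholangiocytes. Without fed 2, Trib3 was highest in hepatocytes (7.84 ± 2.88 CPM, against 3.68 ± 5.11 in Kupffer cells or macrophages), and Ddit3 (19.8 ± 17.2) and Atf4 (64.2 ± 45.7) were highest in B or plasma cells. The lowest mean was in cholangiocytes for Xbp1 (16.0 ± 15.8 CPM), Trib3 (1.15 ± 2.29), Sesn2 (7.17 ± 8.18) and Ern1 (149.9 ± 69.7), and in endothelial nuclei for Hspa5 (45.4 ± 30.6) and Ddit3 (4.82 ± 4.69). Between neighbouring types the ranges over libraries overlapped for each gene. In fed 2 the cholangiocyte sum held only 21507 UMIs and the B or plasma cell sum 30326, so that a count of 0 there allows up to 139 and 98.9 CPM.

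**Figure D5:**
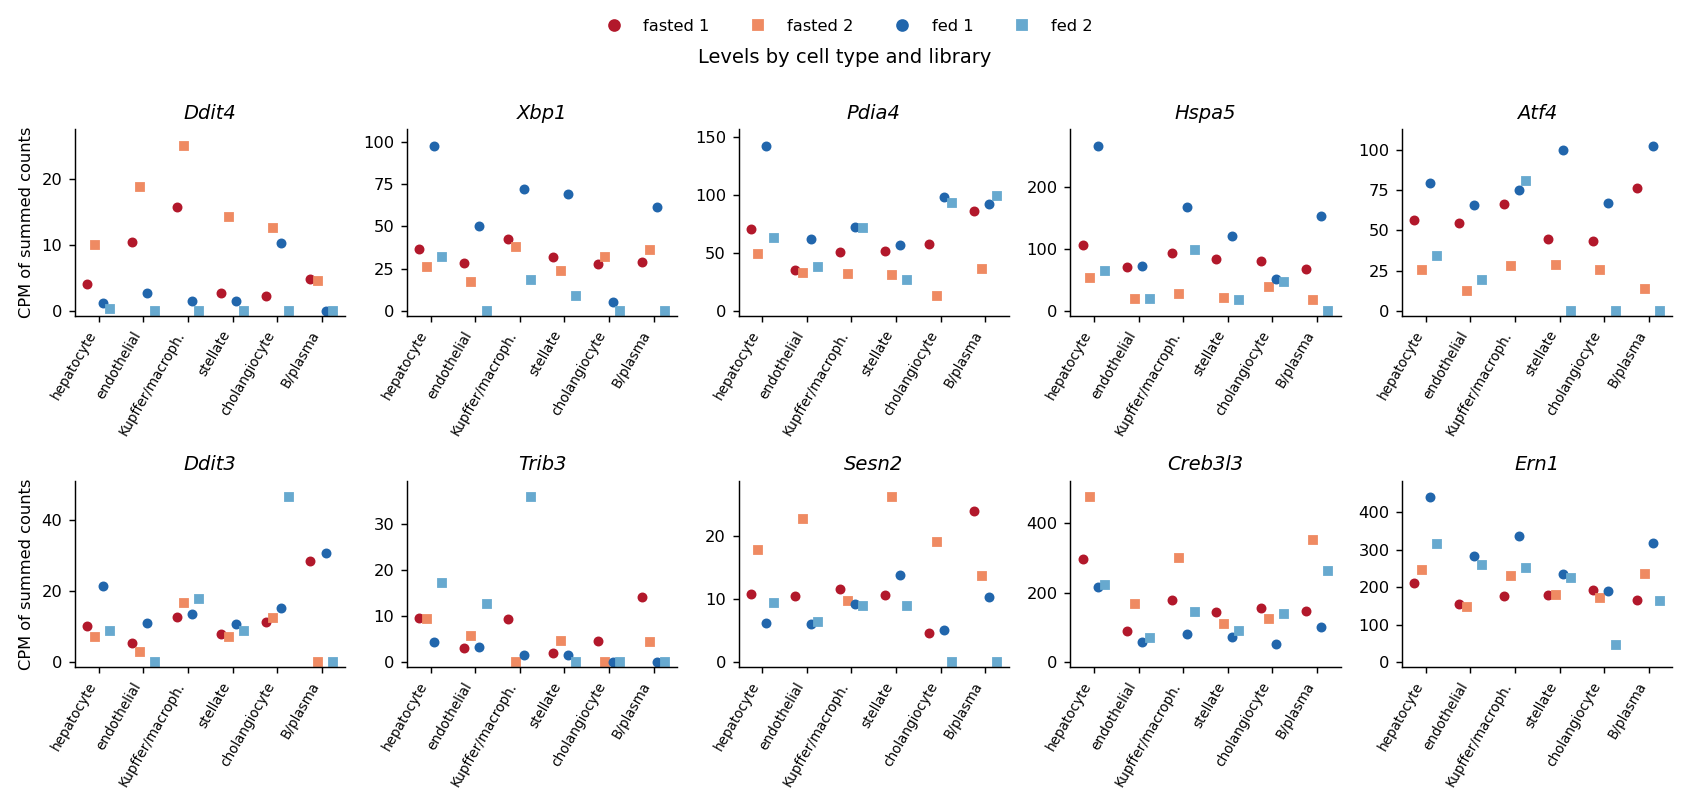
Levels of the 10 genes (CPM of summed counts) by cell type and library, with fasted libraries in red shades left of fed libraries in blue shades within each type. Ddit4 is higher in both fasted libraries in hepatocytes, while in the other types its fed 2 points are at 0 on sums too small to show a difference, Creb3l3 is present in every type, and points at 0 in fed 2 come from sums as small as 21507 UMIs.

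The genes whose pattern over the 24 profiles (6 types in 4 libraries) was most like that of each member were found by Pearson's r of log2 CPM among 12544 genes. The profiles share libraries and differ widely in depth, so r only describes them. Creb3l3 was most like Etnk2 (0.95), Pck1 and Arg1 (0.92 each), Xbp1 like Cnot8, Apeh (0.95 each) and Upf3a (0.93), and Hspa5 like Kdm5d (0.90), Tmem29 and Tpp2 (0.89 each). Pdia4 was most like Cyp4v3, Hsd17b12 (0.81 each) and Prr16 (0.80), and Ern1 like Gm36264, Smad9 (0.87 each) and 4732465J04Rik. Atf4 was most like CAAA01118383.1 (0.98), Taf2 and Ahsa1 (0.96 each), and Ddit3 like Dhx29, Tmc4 (0.90 each) and Tspo (0.81). Ddit4 was most like E230001N04Rik (0.87), Magohb and Hsd17b10 (0.86 each). Trib3 was most like Pcp4l1 (0.92), Atp6v0d2 (0.87) and Mrm3 (0.85), and Sesn2 like Ndufv3 (0.93), Kdsr and Selenow (0.92 each).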

How the data were processed

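Nuclear RNA of 2 fasted and 2 fed preparations of mouse liver was measured with 10x 3′ chemistry. The deposited values are UMI counts per gene and nucleus, which the authors made with Cell Ranger 6.0 on mm10, per the submitters' processing notes. Counts were used as deposited; 13.2% to 17.0% of a library's stored entries are explicit zeros, and counting them as 1 was an alternative. Barcodes with under 500 genes or over 5% mitochondrial counts were left out. Scrublet's own threshold marked hardly any nuclei in 3 of the 4 libraries, so the highest doublet scores were removed instead, at 0.8% per 1000 barcodes. Nuclei were clustered with scanpy 1.11.5 and leidenalg 0.10.2, and clusters were named from markers.

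Counts were summed per library and cell type and compared with edgeR 4.0.16 (quasi-likelihood test, TMM scaling, low-count filter, R 4.3.3, limma 3.58.1), with p-values adjusted over all genes (Benjamini-Hochberg, threshold 0.05). SE is the log2 fold change divided by the root of its F value. The lobule score used hepatocytes with at least 1500 UMIs and landmark genes on counts thinned to 1500 UMIs per nucleus, with libraries as blocks. Alternatives were RLE scaling, no filter, DESeq2 1.42.0, the replicate number as a block, each library left out, doublets kept, at least 1000 genes, thinned counts, another split of the score and landmarks without those that change with fasting. Lists without each library, levels by type without fed 2 and levels with stored zeros as 1 were added after seeing the data. The scripts were tested on simulated data.

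The 10 genes, the lists and their order were chosen with earlier results of these data known. Named were all 10 genes, the first 2 genes of each list and, for likeness, the 3 highest correlations over 24 profiles (log2 CPM, prior count 2, genes with at least 10 counts in at least 4 profiles). Counts from the 3′ end do not show Xbp1 splicing, and overlapping genes on 1 strand cannot be told apart. Promoter sequences are from RefSeq on GRCm38.p6. Depth, given with the values, limits precision most in fed 2, and intervals and floors of 3 counts cover counting error only. T or NK cells, mesothelial and dendritic cells, with under 20 nuclei in a library, were not tested.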

Additional observations from a re-analysis of the deposited data

Results flagged for a closer look

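The lobule gradient of Pdia4 in hepatocytes is listed because the difference of the gradient between fasted and fed livers was itself tested and passed. The pericentral minus periportal log2 fold change was higher in fasted than in fed libraries by 0.89 (SE 0.19; edgeR adjusted p = 0.0180). Both fasted libraries had higher Pdia4 in the pericentral bin and both fed libraries had lower Pdia4 there. The difference was not called without fasted 1, fasted 2 or fed 1, and its cause was not tested.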

How the results depend on the processing

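In hepatocytes, fasted against fed, edgeR called 1 gene, against 0 with RLE scaling, 276 without the low-count filter, 166 with DESeq2, 53 with the replicate number as a block and 0 with stored zeros counted as 1, and 3 to 622 when 1 library was left out (622 without fed 1). Of the 10 stress genes 0 were called, against 1 without the filter, 1 with DESeq2 and 0 to 2 with 1 library left out. By lobule position 2 were called, against 1 with the score split at its middle, 1 with landmarks that change with fasting left out, and 1 to 2 with 1 library left out. The difference of gradients was called for 25 genes, against 45 without the filter, 15 with the middle split and 4 to 107 with 1 library left out (4 without fasted 2, 107 without fed 2). Among the 10 genes it was called for 1, against 2 with RLE scaling, 2 without the filter, 0 with the middle split and 0 to 2 with 1 library left out. The cause of these shifts was not tested.

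Signs changed as follows. Over the fits with 1 library left out, the fasted minus fed log2 fold change ran from -1.72 to 0.18 for Hspa5, from -1.15 to 0.15 for Atf4 and from -0.96 to 1.104 for Trib3, and the pericentral minus periportal one from -0.11 to 0.019 for Xbp1, from -0.12 to 0.30 for Pdia4, from -0.20 to 0.14 for Hspa5 and from -0.044 to 0.49 for Ddit3. The difference of gradients ran from -1.14 to 1.65 for Ddit4 and from -0.45 to 0.76 for Ddit3. With the middle split Ddit3 was at -0.10 by position and -0.055 for the difference of gradients. With the reduced landmarks it was at -0.085 and -0.28, Xbp1 by position at 0.061 and Pdia4 at -0.0037. The acute phase median ran from -2.57 to 0.44.

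The replicate numbers are shared across groups, but no source ties them to animals or days, and there are 2 pairs. Deviations of same-numbered hepatocyte sums correlated at 0.43, a hint from the data and not the design. With the block, Trib3 was at 0.058 and none of the 10 genes was called in edgeR, with 7 of the 10 at an unadjusted p under 0.05, beside 2146 of all 13998 genes. Of 397 values of single stress genes under alternatives, 362 kept their direction and side of the threshold, 9 gained a call, 8 lost one and 18 changed sign. Genes called in the other cell types ran from 0 to 187 over their alternatives.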
